A study of Homo sapiens with 10 samples.

Results

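Cytokine signaling genes were followed in T47D breast cancer cells in which the progesterone receptor (PR) could be induced. The set holds 10 of the 11963 genes on the arrays, namely the receptors IL20RA, PRLR and IL6ST, the kinases JAK1 and JAK2, the transcription factors STAT5A, STAT5B and STAT3, the inhibitor SOCS2 and the repressor BCL6. These 10 genes were chosen by their pathway and with the differences between R5020 and vehicle in the presence of AP21967 in view, so that contrast is given for them as a description, with no test. All 23 probe sets that map to one of these symbols alone were read on all 10 arrays, and the probe set with the highest mean was taken first for each gene. All 10 genes had at least 1 array at log2 6 or more, the limit above which 10911 genes were compared.

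Cytokine receptors of this kind have no kinase of their own. Binding of a ligand brings Janus kinases (JAKs) together on the receptor, the kinases phosphorylate signal transducers and activators of transcription (STATs), and the STATs enter the nucleus and bind DNA. In the breast, prolactin acts through this route on STAT5A and STAT5B in milk-producing epithelium, and progesterone and prolactin act together in the growth of the gland.

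T47D is a human luminal breast cancer line. The iEV cells carried an inducible empty vector and are PR null, the iWT cells carried wild type PR, and the iKR cells carried the K388R mutant PR, which cannot be SUMOylated at that lysine. All cells were serum starved for 2 days with the dimerizer AP21967, which induces the construct, or with ethanol, as the labels give it, whereas the methods of the study give a shorter starvation after the induction. They then received the synthetic progestin R5020 or ethanol for 6 h. Both receptor lines were measured with neither compound, with R5020 alone, with AP21967 alone and with both, and iEV was measured without R5020 only. Each of the 10 conditions had 1 array, so a difference between conditions within a line has no replicate check, and each vector was present in 1 line, so line and vector cannot be told apart. The study describes its inducible lines as clonal.

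The values are log2 signals of Affymetrix human expression arrays after Robust Multi-array Average normalization. PGR, the gene for PR, read 6.25 and 6.17 in the PR null cells and between 10.65 and 12.08 on the 8 arrays of the receptor lines. With neither compound its signal reached 11.12 in iWT and 10.65 in iKR, and with AP21967 alone it read 11.34 in iWT and 12.08 in iKR. The 8 luminal epithelial markers examined had median signals between 10.44 and 15.01, and their mean lay between 12.68 and 13.33 on every array. For 10 markers of fibroblasts, endothelium, immune and basal cells the medians lay between 5.56 and 9.73, highest for COL1A1. The mean of those 10 lay between 7.22 and 7.33. Of the luminal markers, ESR1 fell to 8.68 on its lowest array. In place of replicates, the 2 iEV arrays give a measure of spread. Their difference had an SD of 0.11 over all genes compared, and 95% of genes lay between -0.25 and 0.21.

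With AP21967, R5020 left IL20RA, PRLR and JAK2 higher by over 1.5 fold in both lines. These were 3 of the 10 genes, where 1.59% of all genes compared were higher by as much in iWT and 3.02% in iKR. Past 2.0 fold was IL20RA alone in iWT, against 0.513% of all genes, and IL20RA with JAK2 in iKR, against 0.999%. No member was lower by over 1.5 fold in iWT, where 1.02% of genes were, and IL6ST was the 1 member lower in iKR, where 3.16% were. On the highest-mean probe set, both arrays with R5020 and AP21967 read above the other 8 for 6 genes, beside 11.7% of all genes. These were IL20RA, JAK2, STAT5A, STAT5B, SOCS2 and BCL6, and other probe sets of STAT5B and SOCS2 did not all do so. The median difference of the 10 genes was 0.40 in iWT and 0.28 in iKR, beside -0.02 and 0.03 over all genes. All these counts rest on the contrast that chose the genes. Without AP21967, R5020 moved 0 members past 1.5 fold in either line, where 0.11% of all genes moved in iWT and 0.0825% in iKR.

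**Figure D1:**
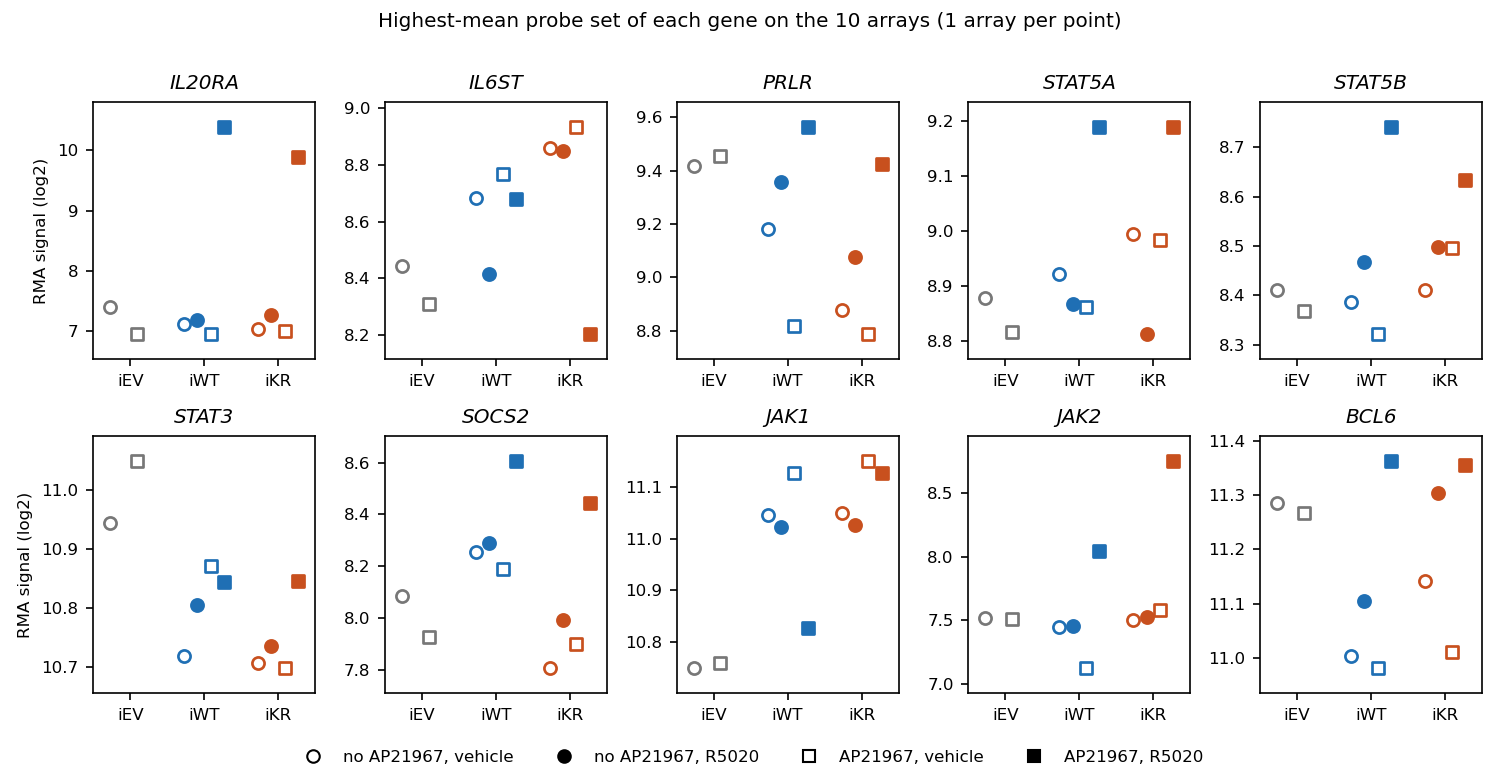
Log2 signal of the highest-mean probe set of each of the 10 genes on the 10 arrays, by line, with 1 array per point and a separate y axis for each gene. Filled squares mark R5020 with AP21967. For IL20RA they lie at 10.39 in iWT and 9.89 in iKR, above every other array, while for IL6ST the filled square in iKR is the lowest point, at 8.20.

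The sequence before the start of 3 of these genes is shown. Of the 10 genes, IL20RA had the largest R5020 difference with AP21967. A PRLR promoter holds part of the progesterone receptor element, as do other promoters not shown, and a BCL6 promoter holds STAT elements. RefSeq promoters (GRCh38.p14, 300 bases from 250 before to 50 after the start) were searched, 35116 in all, of which 19 belong to 9 of the 10 genes. SOCS2 has no entry. The progesterone receptor element, AGAACA and TGTTCT set 3 bases apart, reads the same on both strands. It was allowed 2 mismatches and was found in 1.41% of all promoters and in 0 of the 19, whose best window had 3 mismatches. Its single arm TGTTCT, searched on both strands and part of the whole element, was found in 14.8% of all promoters and in 4 of the 19. The STAT element TTCNNNGAA, also its own reverse complement, was found in 7.66% of all promoters and in 1 of the 19, that of BCL6. A match is a description of letters and not a binding site, and no match says only that these letters are not in the window. The windows below run 5′ to 3′ on the gene's strand, from 250 bases before the start through the first 30 transcribed bases. In IL20RA (chr6:137044936-137045215, minus strand), shown as the gene with the largest R5020 difference with AP21967 in iWT, nothing is in capitals because no element was found. In PRLR (chr5:35118093-35118372, minus strand), the capitals mark a single arm on the opposite strand, at -133 to -128. In BCL6 (chr3:187745439-187745718, minus strand), they mark STAT elements at -28 to -20, -5 to 4 and 11 to 19, counted from the start as 1.
IL20RA: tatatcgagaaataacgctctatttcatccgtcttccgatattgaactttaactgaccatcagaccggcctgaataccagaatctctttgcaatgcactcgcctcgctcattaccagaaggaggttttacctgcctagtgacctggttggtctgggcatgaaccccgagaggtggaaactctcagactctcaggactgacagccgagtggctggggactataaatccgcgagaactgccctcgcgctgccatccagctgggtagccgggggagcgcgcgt
PRLR: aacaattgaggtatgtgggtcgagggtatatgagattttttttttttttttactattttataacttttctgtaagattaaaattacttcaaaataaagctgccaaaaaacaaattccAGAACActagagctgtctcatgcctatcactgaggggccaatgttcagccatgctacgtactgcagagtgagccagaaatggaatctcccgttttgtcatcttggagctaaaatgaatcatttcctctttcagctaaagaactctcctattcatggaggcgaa
BCL6: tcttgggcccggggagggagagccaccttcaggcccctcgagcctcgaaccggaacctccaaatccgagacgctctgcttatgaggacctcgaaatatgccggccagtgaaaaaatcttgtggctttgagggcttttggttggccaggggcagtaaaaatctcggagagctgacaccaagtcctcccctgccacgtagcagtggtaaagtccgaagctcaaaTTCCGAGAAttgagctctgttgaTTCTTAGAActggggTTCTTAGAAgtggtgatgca

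A further STAT element of BCL6 lies past the window shown, at 37 to 45. Promoters with 4 or more such elements were 7 of the 35116, or 0.0199%. That cut of 4 is the count of this BCL6 promoter itself, so the share is only a description. Counted by presence of the element, 1 of the 19 member promoters held it, beside 7.66% of all promoters. The other single arms were 1 site in each of 2 STAT5A promoters, at -97 to -92 and -205 to -200, and 1 at a second BCL6 start, at 31 to 36.

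IL20RA encodes a subunit of the receptors for IL-19, IL-20 and IL-24, which signal mainly through JAK1 and STAT3 in epithelium. Its 1 probe set read 7.41 without and 6.95 with AP21967 in iEV. In iWT it read 7.12 with neither compound, 7.18 with R5020 alone, 6.95 with AP21967 alone and 10.39 with both. In iKR the same conditions gave 7.03, 7.27, 7.01 and 9.89. The 8 arrays that lacked either compound thus spanned 6.95 to 7.41, and the 2 arrays with both stood clear of them. R5020 with AP21967 was higher than its vehicle by 3.45 in iWT, or 10.9 fold, and by 2.89 in iKR, or 7.39 fold. This was rank 1 of 10911 genes in iWT and rank 4 in iKR. Without AP21967 the same difference was 0.06 in iWT and 0.24 in iKR. The 2 iEV arrays, 1 of them with AP21967, differed by 0.46 for IL20RA, outside the range of 95% of genes. The R5020 differences without AP21967 were smaller than this, but the 2 iEV arrays differ by AP21967 and are not replicates. Among the 10911 genes, the iKR difference without AP21967 ranked 222 from the highest, where the SD over genes was 0.12. The iWT difference without AP21967 ranked 2679, where the SD was 0.125.

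PRLR encodes the prolactin receptor. Its highest-mean probe set read 9.42 without and 9.45 with AP21967 in iEV. In iWT it read 9.18 with neither compound, 9.36 with R5020 alone, 8.82 with AP21967 alone and 9.57 with both. In iKR the values were 8.88, 9.08, 8.79 and 9.42. The receptor lines were therefore below iEV without R5020, and came near the iEV level on the arrays with both compounds. In iKR the other 3 probe sets stayed below both iEV arrays there. R5020 with AP21967 was higher than vehicle by 0.75 in iWT and 0.64 in iKR. The 4 probe sets of PRLR gave 0.75 to 0.91 in iWT and 0.64 to 1.04 in iKR, all in 1 direction. The vehicle arrays with AP21967 were the lowest of each line on 4 of 4 probe sets, and the first probe set was lower with AP21967 alone by 0.37 in iWT and by 0.09 in iKR. Both differences use that same vehicle array with opposite signs. Against the array with neither compound, the first probe set was higher with both by 0.38 in iWT and 0.55 in iKR. Less the R5020 difference without AP21967, it was 0.57 in iWT and 0.44 in iKR.

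**Figure D2:**
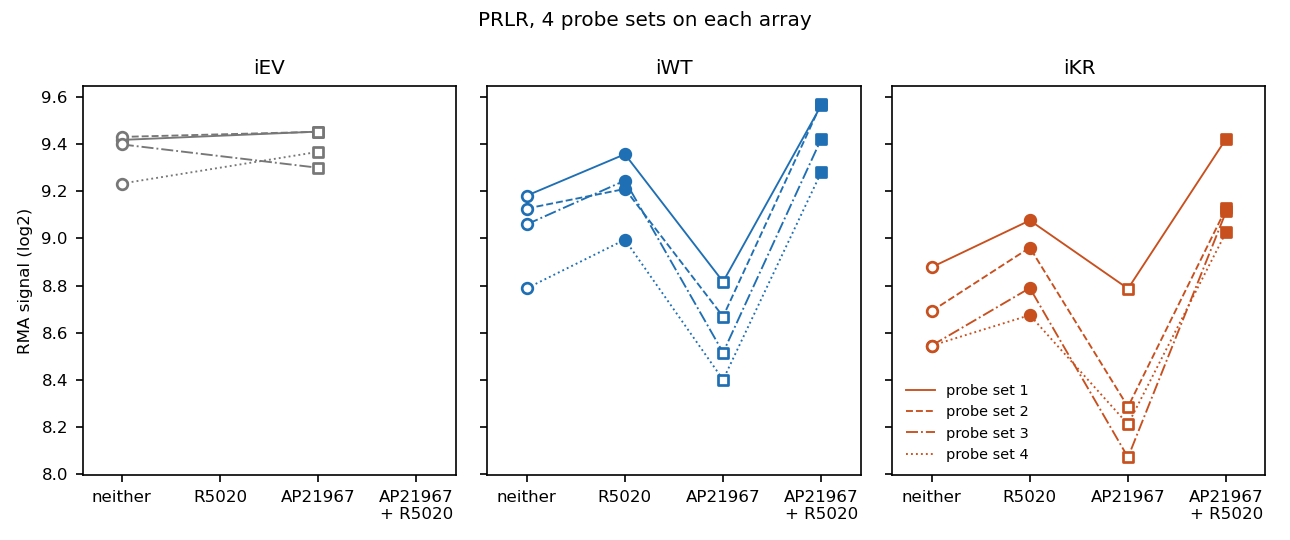
Log2 signal of the 4 PRLR probe sets by condition in iEV, iWT and iKR, 1 array per point, with lines joining the values of 1 probe set. In both receptor lines the vehicle array with AP21967 is the lowest and the array with both compounds the highest, 9.57 in iWT and 9.42 in iKR for the first probe set.

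IL6ST encodes gp130, the signaling subunit shared by the receptors for IL-6, IL-11, LIF and oncostatin M. Its highest-mean probe set read 8.44 and 8.31 in iEV without and with AP21967. In iWT it read 8.68 with neither compound, 8.42 with R5020 alone, 8.77 with AP21967 alone and 8.68 with both. In iKR it read 8.86, 8.85, 8.94 and 8.20, so that the iKR array with both compounds was the lowest of the 10. The difference between R5020 and vehicle with AP21967 was -0.09 in iWT and -0.73 in iKR. The probe sets of IL6ST disagreed. The other 4 gave 0.15 to 0.29 in iWT and -0.29 to 0.21 in iKR, and a second probe set was also lower in iKR, at -0.29, while the remaining 3 were higher. The mean of the 5 probe sets gave 0.17 in iWT and -0.10 in iKR, so that the sign in iWT turned.

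JAK2 encodes the kinase bound to the prolactin receptor. Its highest-mean probe set read 7.51 on both iEV arrays. In iWT it read 7.45 with neither compound, 7.45 with R5020 alone, 7.12 with AP21967 alone and 8.04 with both. In iKR it read 7.50, 7.53, 7.58 and 8.76. The arrays with both compounds were the 2 highest, and the iWT vehicle array with AP21967 was the lowest. The difference with AP21967 was 0.92 for iWT and 1.17 for iKR, and against the array with neither compound by 0.59 and 1.26. A second probe set, which reached 5.96 at most, was higher by 0.43 and 0.47.

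JAK1 encodes a kinase used by gp130 and by the IL-20 receptors. Its 1 probe set read 10.75 and 10.76 in iEV. In iWT it read 11.05, 11.02, 11.13 and 10.83 in the same order of conditions, and in iKR 11.05, 11.03, 11.15 and 11.13. The iWT array with both compounds was the lowest of the receptor lines. The difference with AP21967 was -0.30 in iWT and -0.02 in iKR.

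STAT5A and STAT5B encode the pair of closely related STATs activated by prolactin. STAT5A read 8.88 and 8.82 in iEV, 8.92, 8.87, 8.86 and 9.19 in iWT, and 8.99, 8.81, 8.98 and 9.19 in iKR. STAT5B read 8.41 and 8.37 in iEV, 8.39, 8.47, 8.32 and 8.74 in iWT, and 8.41, 8.50, 8.50 and 8.63 in iKR. In both genes the 2 arrays with R5020 and AP21967 were the highest on the highest-mean probe set. The STAT5A difference with AP21967 was 0.33 for iWT and 0.21 for iKR. The STAT5B difference was 0.42 for iWT and 0.14 for iKR on this probe set, and its 3 probe sets spanned 0.11 to 0.42 in iWT and 0.14 to 0.54 in iKR. Which line had the larger STAT5B difference thus depended on the probe set. On the other STAT5B probe sets the iWT array with both compounds was not above the 8 arrays that lacked either compound. Relative to the highest of these it stood at -0.01 and -0.14.

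STAT3 encodes the STAT activated through gp130. Its highest-mean probe set read 10.94 and 11.05 in iEV, 10.72, 10.80, 10.87 and 10.84 in iWT, and 10.71, 10.74, 10.70 and 10.85 in iKR. The iEV arrays were the 2 highest. The difference with AP21967 was -0.03 in iWT and 0.15 in iKR, and a second probe set gave 0.06 and 0.31.

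SOCS2 encodes a feedback inhibitor of growth hormone and prolactin signaling that is itself a STAT5 target. Its highest-mean probe set read 8.08 and 7.93 in iEV, 8.25, 8.29, 8.19 and 8.61 in iWT, and 7.80, 7.99, 7.90 and 8.44 in iKR. On this probe set the arrays with both compounds were the highest of their line and of all 10. The difference with AP21967 was 0.42 in iWT and 0.55 in iKR, and 0.33 and 0.23 on the second probe set. On that second probe set the iKR array with both stood at -0.06 relative to the highest array that lacked either compound.

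BCL6 encodes a transcriptional repressor that is a known target of STATs. Its highest-mean probe set read 11.28 and 11.27 in iEV, 11.004, 11.10, 10.98 and 11.36 in iWT, and 11.14, 11.30, 11.01 and 11.35 in iKR. The arrays with both compounds were the 2 highest, by 0.06 in iWT and 0.05 in iKR over the highest of the other 8. The difference with AP21967 was 0.38 in iWT and 0.34 in iKR, and 0.45 and 0.41 on the second probe set. In iKR, R5020 without AP21967 gave 0.16, which leaves 0.18 net of it.

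**Figure D3:**
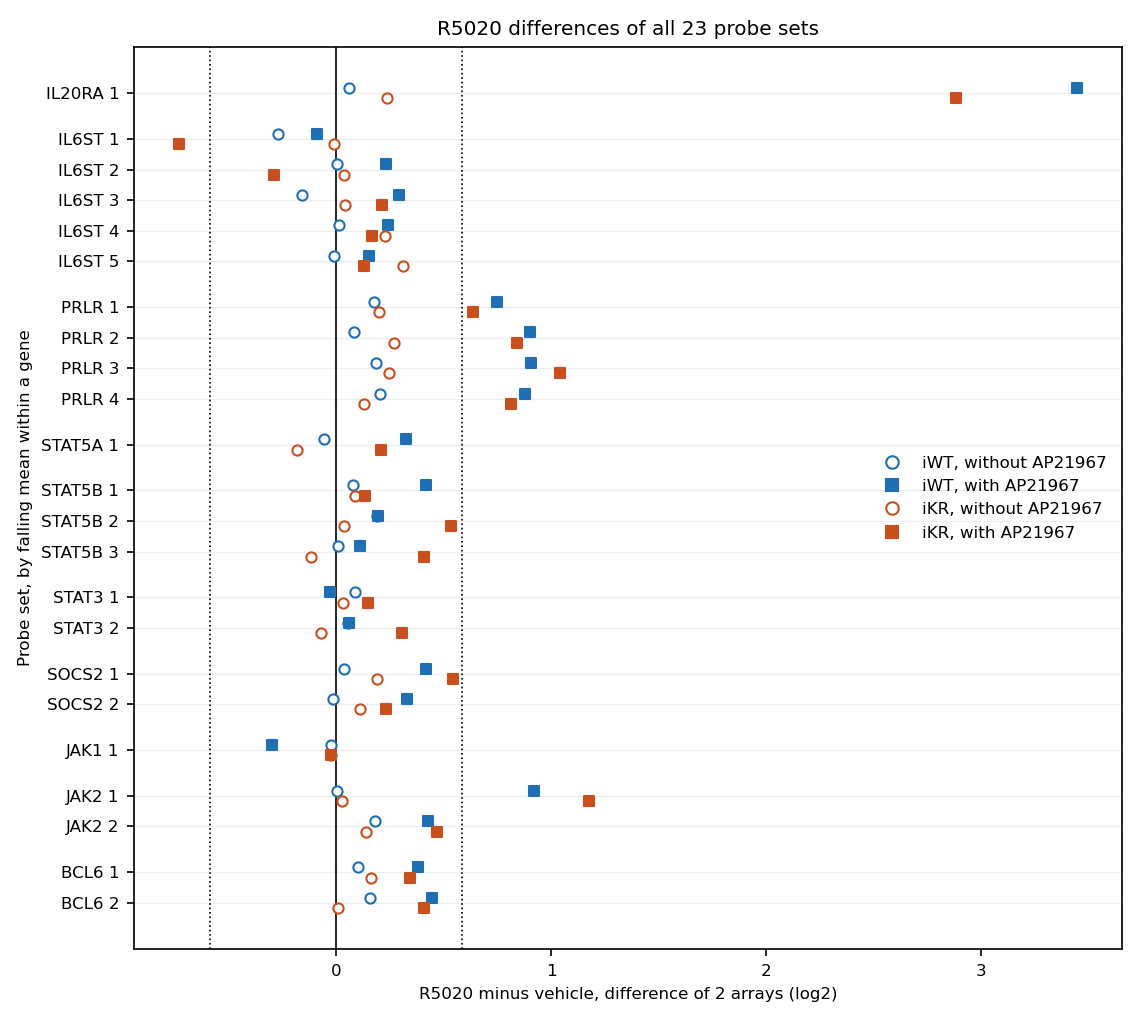
Difference between R5020 and vehicle (log2, x axis) for each of the 23 probe sets, numbered by falling mean within a gene, with 2 arrays behind each point. Filled squares are with and open circles without AP21967, blue is iWT and orange iKR, and dotted lines mark 1.5 fold. The filled squares of IL20RA lie at 3.45 and 2.89, and no open circle passes a dotted line.

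R5020 in the absence of AP21967 was tested as a response shared by iWT and iKR in limma, a linear model fitted over all genes. Its estimates come from the 4 arrays without AP21967, but its error comes from all 8 arrays and so also holds the difference between the lines in the contrast that chose the genes. Of the 10 genes, 0 were called at a Benjamini-Hochberg adjusted p under 0.05, and 0.00917% of all genes, or 1, were. At an unadjusted p under 0.05 there was 1 member, PRLR, beside 3.95% of all genes. PRLR was higher by 0.19 (SE 0.08, 95% interval 0.01 to 0.36, adjusted p = 1 by limma) and was higher in 2 of 2 lines. For IL20RA the estimate was 0.15 (95% interval -0.13 to 0.43, adjusted p = 1 by limma). For JAK2 it was 0.01 (95% interval -0.18 to 0.21, adjusted p = 1 by limma).

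The lines were then compared on the 6 vehicle arrays, which hold no R5020, with the arrays with and without AP21967 as the 2 samples of a line. The vehicle arrays with AP21967 are also the reference of the contrast that chose the genes, so a low value there favors the choice of a gene and also lowers its line, and these tests are not independent of the choice. In iWT 4 members differed from iEV, where 23.8% of all genes did, and in iKR 5 members, where 25.7% did. PRLR was lower than in iEV by both comparisons, at -0.44 in iWT (SE 0.09, adjusted p = 0.012 by limma) and -0.60 in iKR (adjusted p = 0.0028). The other 3 PRLR probe sets were lower by more, -0.54 to -0.71 in iWT and -0.92 to -1.04 in iKR. IL6ST was higher, by 0.35 in iWT (adjusted p = 0.01 by limma) and 0.52 in iKR (adjusted p = 0.0016), but its probe sets disagreed in size, from 0.12 to 0.35 in iWT and from -0.02 to 0.52 in iKR. Their mean gave 0.19 in iWT (adjusted p = 0.03 by limma) and 0.23 in iKR (adjusted p = 0.014). JAK1 was higher by 0.33 (SE 0.06, adjusted p = 0.005 by limma) and 0.35 (adjusted p = 0.0038). BCL6 was lower, at -0.28 in iWT (adjusted p = 0.012 by limma) and -0.20 in iKR (adjusted p = 0.043). STAT3 was lower in iKR at -0.30 (adjusted p = 0.011 by limma), while in iWT the value was -0.20 (adjusted p = 0.053). Some alternatives called STAT3 in iWT, such as the mean of probe sets (adjusted p = 0.033 by limma) and a trended prior (adjusted p = 0.011). Others did not, such as median centring (adjusted p = 0.055 by limma).

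Several of these calls rested on single arrays. Without the iWT vehicle array with AP21967, 0 of the 4 calls in iWT remained, and PRLR stood at -0.27 (adjusted p = 0.12 by limma), IL6ST at 0.29 (adjusted p = 0.12), JAK1 at 0.32 (adjusted p = 0.065) and BCL6 at -0.31 (adjusted p = 0.075). Without the iEV array with AP21967, PRLR in iWT was at -0.31 (adjusted p = 0.073 by limma), IL6ST at 0.24 (adjusted p = 0.06) and BCL6 at -0.25 (adjusted p = 0.062). BCL6 in iWT was also not called without the iWT array with neither compound, at -0.26 (adjusted p = 0.12 by limma). STAT3 in iKR was not called without the iEV array with AP21967 (-0.28, adjusted p = 0.057 by limma) or the iKR array with it (-0.23, adjusted p = 0.12), and BCL6 in iKR was not called when any of the 6 arrays was left out, with values of -0.15 to -0.26. PRLR, IL6ST and JAK1 in iKR were called whichever of the 6 arrays was left out. IL20RA was not called against iEV on the 6 arrays, at -0.14 in iWT and -0.16 in iKR, but this too rested on single arrays. Without the iEV array with AP21967 it stood at -0.32 in iWT and -0.34 in iKR. Without the iEV array with neither compound it stood at 0.04 and 0.02. The arrays with neither compound took no part in the choice, but they are among the 6 that gave the estimates. On them PRLR read 9.42 in iEV, 9.18 in iWT and 8.88 in iKR. IL6ST read 8.44, 8.68 and 8.86 there, and JAK1 10.75, 11.05 and 11.05, in the same order of lines. The direction was that of the estimates, which these arrays helped to make, so it is no separate check.

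Between the receptor lines, SOCS2 was the 1 member that differed, where 5.01% of all genes did. It was lower in iKR than in iWT, at -0.37 (SE 0.07, adjusted p = 0.03 by limma), and the second probe set gave -0.27. The call was lost without any 1 of the 4 arrays of these lines, with values between -0.27 and -0.47 and adjusted p between 0.052 and 0.22 by limma. The intervals of IL20RA (-0.24 to 0.21) and JAK1 (-0.12 to 0.15) were the ones centered closest to 0.

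**Figure D4:**
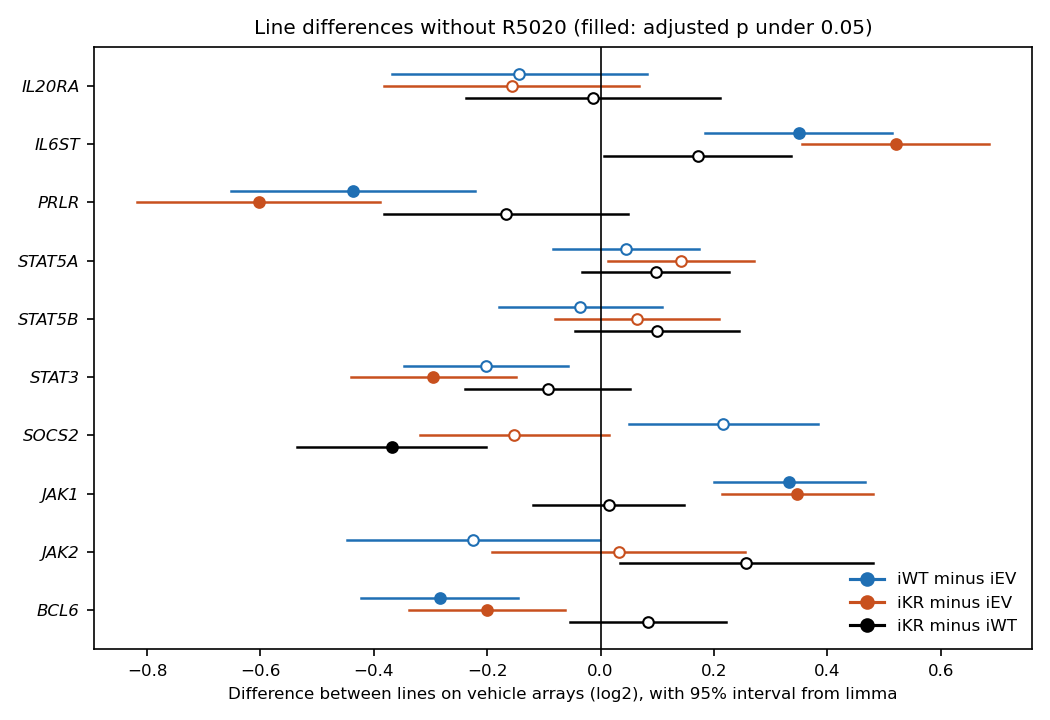
Differences between lines (log2) on the 6 vehicle arrays for the 10 genes, with 95% intervals from limma and filled points for an adjusted p under 0.05. PRLR lies furthest below 0, with -0.44 for iWT and -0.60 for iKR relative to iEV, and IL6ST and JAK1 lie above it.

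AP21967 by itself was tested as a shared difference of the 3 lines on the vehicle arrays. A low vehicle array with AP21967 also favors the choice of a gene, so this test is not independent of the choice either. It called 0 members and 0.0% of all genes by limma, with 981 genes, or 8.99% of all genes, at an unadjusted p under 0.05. About the same share of the members, 1 gene, had an unadjusted p under 0.05. This was IL20RA, at -0.22 (SE 0.08, adjusted p = 0.51 by limma), which was lower with AP21967 in 3 of 3 lines, by 0.46 in iEV, 0.17 in iWT and 0.03 in iKR. PRLR had a value of -0.14 (95% interval -0.32 to 0.04, adjusted p = 0.63 by limma). It was lower with AP21967 in the 2 receptor lines and not in iEV, and that difference between lines was not tested.

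The rest of the pathway was described from 5 lists of cytokine receptors, ligands, other JAKs and STATs, inhibitors and STAT target genes. Of their 101 genes, 80 were compared. Here the shared R5020 response with AP21967 was tested by limma, and 8 genes rose and 3 fell, where 5.23% of all genes rose and 6.25% fell. The lists were chosen with earlier results of these data known, so these tests may not be independent of the choice. The median difference over the 80 genes was 0.09 in iWT and 0.06 in iKR. Of the 101 genes, 12 were not analysed here, and the others left out lay below the level limit.

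Of 30 cytokine receptors, 2 rose and 0 fell. GHR, the growth hormone receptor, read 10.38 with vehicle and 10.68 with R5020 in iWT, and 9.86 and 10.41 in iKR, all with AP21967. It rose by 0.43 (SE 0.09, adjusted p = 0.016 by limma), in 2 of 2 lines. LIFR, which pairs with gp130 in the LIF receptor, read 6.28 and 6.71 in iWT and 6.62 and 6.995 in iKR and rose by 0.40 (SE 0.08, adjusted p = 0.018 by limma). Among the receptors not called, CSF2RB had a value of -0.28 (adjusted p = 0.2 by limma) and OSMR, the oncostatin M receptor, 0.20 (adjusted p = 0.15). The CSF2RB difference was -0.002 in iWT and -0.56 in iKR. Of 12 ligands none was called, and CNTF (0.23, adjusted p = 0.2 by limma) and IL24, a ligand of the IL-20 receptors (0.23, adjusted p = 0.13), were furthest from 0.

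Of the 4 other JAKs and STATs compared, STAT6, the STAT of IL-4 signaling, fell by 0.33 (SE 0.08, adjusted p = 0.035 by limma), which cyclic loess normalization took to -0.29 (adjusted p = 0.061). STAT4 had a value of 0.15 (adjusted p = 0.28 by limma) and JAK3 0.10 (adjusted p = 0.52). Of 15 inhibitors none was called. PTPN1, a tyrosine phosphatase that acts on JAK2, had a value of 0.37 (adjusted p = 0.071 by limma) and PTPN6 -0.26 (adjusted p = 0.081). For PTPN1 the difference was 0.12 in iWT and 0.625 in iKR.

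Of 19 genes known as STAT targets, 6 rose and 2 fell. PIM2, a survival kinase, rose by 1.54 (adjusted p = 4.6e-05 by limma) and CEBPD, a transcription factor, by 1.41 (adjusted p = 9.6e-05). The second CEBPD probe set moved less, by 0.50 in iWT and 0.66 in iKR. CCND1, which encodes cyclin D1, rose by 0.74 (adjusted p = 0.0083 by limma), MYC by 0.69 (adjusted p = 0.0013), HIF1A by 0.54 (adjusted p = 0.0045) and IGF1 by 0.35 (adjusted p = 0.021). By line, CCND1 stood at 1.05 in iWT and 0.42 in iKR. Another IGF1 probe set, taken when _x_at and _s_at probe sets were left out, gave 0.25 (adjusted p = 0.095 by limma). Over all other IGF1 probe sets the differences in the lines spanned 0.14 to 0.88. JUNB fell by 0.62 (adjusted p = 0.0051 by limma) and ELF5, a transcription factor of milk-producing cells, by 0.60 (adjusted p = 0.0074). The second ELF5 probe set moved less, by -0.23 in iWT and -0.44 in iKR. CEBPB (0.36, adjusted p = 0.15 by limma) and BCL2L1 (-0.25, adjusted p = 0.07) were not called. By line, CEBPB stood at 0.001 in iWT and 0.72 in iKR, and BCL2L1 at -0.21 and -0.29. Many of these genes answer to other factors as well as to STATs.

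**Figure D5:**
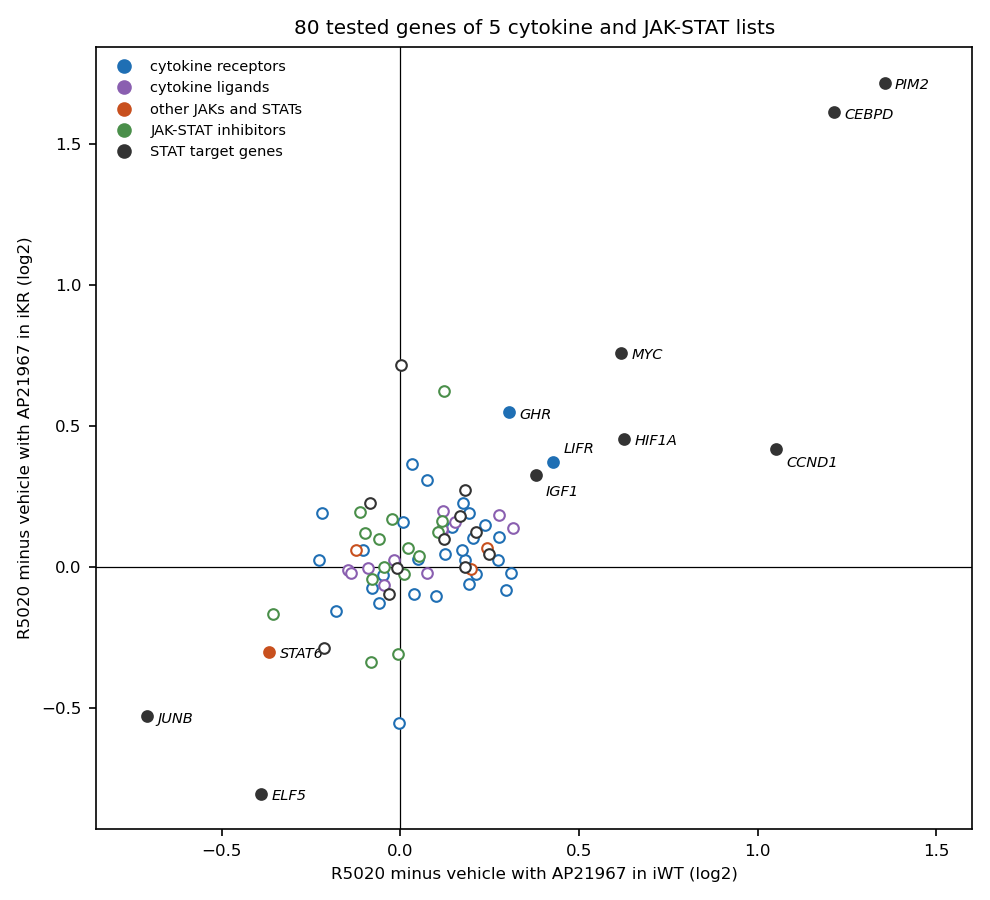
R5020 minus vehicle with AP21967 (log2) for iWT (x axis) and iKR (y axis), over 80 genes of the 5 lists, colored by list. Filled points passed limma at an adjusted p under 0.05. PIM2 and CEBPD lie furthest up in both lines. JUNB lies lowest in iWT and ELF5 lowest in iKR.

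The genes whose pattern over the 10 arrays was most like that of IL20RA were MPHOSPH10 (Pearson r = 0.992), KIAA0040 (0.989), BICD2 (0.986), ADGRA2 (0.985) and PMAIP1 (0.985). This likeness is a description over 10 arrays and rests on the 2 arrays with both compounds. R5020 with AP21967 was higher than vehicle by 2.58 in iWT and 2.51 in iKR for ADGRA2 and by 1.70 and 1.01 for PMAIP1, which encodes NOXA. Among the members, r with IL20RA was 0.907 for STAT5B, 0.878 for STAT5A, 0.851 for JAK2 and 0.799 for SOCS2. It was 0.663 for BCL6, 0.591 for PRLR, 0.104 for STAT3, -0.121 for JAK1 and -0.332 for IL6ST.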

How the data were processed

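Expression in T47D cells was measured under 10 conditions on Affymetrix arrays, 1 for each. The authors ran Robust Multi-array Average from the affy package in R, which corrects background and equalizes quantiles, and deposited log2 signals per probe set. Versions are not given in the sources used here. Arrays have no depth, and their number limits the precision.

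The platform annotation gave 1 gene for 19070 of 22277 probe sets, several for 1043 and none for 2164. The highest-mean probe set stood for each of 11963 genes, and 10911 with an array at log2 6 or more were tested. The members and lists were chosen with earlier results of these data known. Named genes were all members, PGR, every list gene called and the 2 largest others of each list, and the 5 genes most like IL20RA.

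Models were fitted with limma 3.58.1 in R 4.3.3 and tested on simulated data. The first used the 8 arrays of iWT and iKR. It had 1 mean per line with and without AP21967, and 1 R5020 effect for each of those states, shared by the lines, and does not test iWT against iKR. The second used 6 vehicle arrays, with line and AP21967 as additive terms. Both had 2 residual degrees of freedom, and since the samples of a line are not stated to be separate cultures, p-values measure only the spread between these arrays. Benjamini-Hochberg adjusted p under 0.05 was called. Alternatives were other probe set rules, normalizations, filters, limma settings, reference arrays and leaving out each vehicle array. Figures were drawn with Python 3.11.15 and matplotlib 3.10.9.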

Additional observations from a re-analysis of the deposited data

Results flagged for a closer look

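For 2 probe sets the difference between R5020 and vehicle with AP21967 lay on opposite sides of 0 in the receptor lines. The second IL6ST probe set stood at 0.23 in iWT and -0.29 in iKR, a difference of -0.52 between the lines. The highest-mean STAT3 probe set stood at -0.03 in iWT and 0.15 in iKR, a difference of 0.18. Neither difference was tested, since each rests on 4 single arrays.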

How the results depend on the processing

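R5020 and vehicle were compared within each line, but nothing could be paired by replicate number, since each condition has 1 array and all carry the same number. No called value changed direction under any alternative run, and 24 uncalled differences of single members moved by more than the iEV spread. Without _x_at and _s_at probe sets, 1 member was past 1.5 fold higher in iWT and 1 in iKR, IL20RA having no other kind, 5 list genes rose and 1 fell, 342 genes rose in all, and 1518, 1623 and 292 genes were called for iWT against iEV, iKR against iEV and iKR against iWT. At 2.0 fold, 1 member was higher in iWT and 0 lower in iKR, and with the mean of probe sets also 0 were lower in iKR. With all 10 arrays in the fit, 5 list genes fell and 0 genes answered to R5020 without AP21967. With a trended prior, 988 genes were called for iKR against iWT. The cause of these shifts was not tested.

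Leaving out 1 vehicle array leaves a line with a lone sample, assumed to vary like the others. Members called then ranged from 0 to 5 for iWT against iEV, 3 to 4 for iKR against iEV and 0 to 1 for iKR against iWT. Genes called ranged from 1172 to 2455, 1554 to 2366 and 66 to 770, and from 0 to 3 for AP21967. BCL6 in iKR against iEV was also not called with the mean of probe sets (-0.15) or without _x_at and _s_at probe sets (-0.20).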
